A study of Homo sapiens with 10 samples.

Results

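The genes described here are 9 genes of cystine import and of glutathione synthesis, recycling and use, taken by their Ensembl IDs out of the 20289 genes measured by ribosome profiling in human pancreatic ductal adenocarcinoma cells. They are SLC7A11 (ENSG00000151012), GCLC (ENSG00000001084), GCLM (ENSG00000023909), GSS (ENSG00000100983), GSR (ENSG00000104687), CTH (ENSG00000116761), CBS (ENSG00000160200), MGST1 (ENSG00000008394) and GSTP1 (ENSG00000084207). The rule that picks them names genes by function and uses no measured value, though earlier results of these libraries were known when it was set. All 9 were above 0 in every library, and all 9 passed the filter on low values, which kept genes averaging 1 FPKM or more.

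Glutathione is a tripeptide of glutamate, cysteine and glycine, and the supply of cysteine usually limits how fast it is made. Many cancer cells take up cystine, the oxidised dimer of cysteine, through system xc-, an antiporter whose transporting light chain is SLC7A11. Erastin and its derivatives, imidazole ketone erastin (IKE) among them, block this antiporter. Cells then run short of glutathione, the cofactor with which GPX4 detoxifies lipid peroxides, and can die by ferroptosis, an iron-dependent death driven by lipid peroxidation.

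The series set out to find regulators of ferroptosis in surviving cells of 2 established lines, CFPAC-1 and PANC-1, both labelled pancreatic adenocarcinoma. The groups were CFPAC-1 with 10 µM IKE (2 libraries), CFPAC-1 with 0.1% DMSO (2 libraries), PANC-1 with 1 µM IKE (4 libraries) and PANC-1 with 0.1% DMSO (2 libraries). The treatment labels give 24 h of exposure, whereas the extraction protocol speaks of 5 consecutive days, so the exposure is not settled here. Dead cells were washed away before lysis in all groups, and the dose differed between the lines, so line and dose cannot be told apart. Values are footprint levels in FPKM, fragment counts scaled by gene length and library size, so levels of different genes are compared per length. Each level joins mRNA abundance and ribosome occupancy of bulk cells. A change in every cell and a change in the mix of surviving cells cannot be told apart.

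The depth of the libraries relative to CFPAC-1 DMSO replicate 1 was 0.917 to 1.18 in the other CFPAC-1 libraries, 0.329 and 0.5 in PANC-1 DMSO, and 0.877, 0.24, 0.5 and 0.209 in PANC-1 IKE replicates 1 to 4. These ratios are the most frequent ratios of low FPKM values between that library and each other one. They used genes found in few libraries, whose values were taken to be mostly single reads. Absolute read numbers were not recovered, since only 27.3% of 2825 low genes gave whole reads (tolerance of 0.08 reads, widened for the rounding of the table). The relative depths are therefore rough estimates as well. In PANC-1 IKE replicates 2 and 4 the top 10 genes took up 16.2% and 23.1% of all FPKM, and in the other 8 libraries 8.51% to 12.2%. Replicates scattered more in PANC-1 (median SD per gene of 0.48 on the log2 scale) than in CFPAC-1 (0.18), and the statistical model weighted the lines accordingly. Symbols were used for the 9 genes only, because no table used here pairs the other Ensembl IDs with names. Other genes of the pathway, such as SLC3A2, and the markers of the labelled cell type were therefore not analysed here.

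Glutamate-cysteine ligase, the enzyme that joins glutamate to cysteine in the first step of glutathione synthesis, is made of a catalytic subunit, GCLC, and a modifier subunit, GCLM. The promoters of the subunit genes are shown because the subunits differed in their footprint levels. That of GSTP1 is shown as an example that holds the motif described below. The sequences are the 250 bases before the annotated start in RefSeq, build GRCh38.p14, read 5′ to 3′ on the gene's strand. They cover chr6:53545102-53545351 on the minus strand for GCLC, chr1:93909431-93909680 on the minus strand for GCLM and chr11:67583562-67583811 on the plus strand for GSTP1. Capitals mark TGACNNNGC, the core of the antioxidant response element bound by NRF2, on either strand.
GCLC: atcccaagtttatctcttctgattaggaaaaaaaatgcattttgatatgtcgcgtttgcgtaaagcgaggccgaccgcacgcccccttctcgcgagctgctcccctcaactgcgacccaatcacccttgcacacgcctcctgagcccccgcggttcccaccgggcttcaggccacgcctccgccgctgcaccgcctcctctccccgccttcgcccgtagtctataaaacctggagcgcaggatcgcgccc
GCLM: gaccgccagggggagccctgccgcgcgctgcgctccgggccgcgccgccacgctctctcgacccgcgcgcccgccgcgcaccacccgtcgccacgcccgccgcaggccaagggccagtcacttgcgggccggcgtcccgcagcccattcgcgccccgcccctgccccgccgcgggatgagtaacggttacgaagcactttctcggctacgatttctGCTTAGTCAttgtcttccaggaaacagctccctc
GSTP1: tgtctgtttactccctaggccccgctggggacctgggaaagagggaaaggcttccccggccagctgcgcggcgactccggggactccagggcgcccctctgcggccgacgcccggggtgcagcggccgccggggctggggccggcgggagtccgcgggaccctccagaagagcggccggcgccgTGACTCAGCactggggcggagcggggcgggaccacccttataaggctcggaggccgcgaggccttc

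RefSeq promoter windows were matched for 6 of the 9 genes, namely GCLC, GCLM, CTH, CBS, MGST1 and GSTP1. GCLM had 1 match to TGACNNNGC, on the strand opposite to the gene's, with its left end as printed 34 bases before the start. GSTP1 had 1 match on the gene's own strand, 66 bases before the start. CBS had a match in 1 of its 3 annotated windows. The windows of GCLC, CTH and MGST1 had none. Of all 35116 promoter windows of this length, 10.9% held a match. TGATGNAA, the core of the element bound by ATF4, was in no window of these 6 genes and in 3.14% of all windows, searched on both strands. A match is a string of letters and not a measured binding site. Only these 250 bases were searched, so a window without a match does not show that its gene lacks the element. SLC7A11, GSS and GSR had no window to search.

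The first question was how the genes stood in CFPAC-1 cells that survived 10 µM IKE. GCLC and CBS rose in the model of both lines, but were not called in a fit of CFPAC-1 alone (limma, adjusted p = 0.302 and 0.328). That fit called 0 genes of all those tested and had 1591 at an unadjusted p under 0.05. It rests on 2 libraries in each group and has fewer residual degrees of freedom than the model. For GCLC its SE was smaller (0.13 against 0.23). Its lack of calls therefore cannot decide whether a gene changed. SLC7A11 stood at 2.18 times the mean of its controls without passing the threshold, and GCLM, GSS, GSR, CTH, MGST1 and GSTP1 stood at 0.881 to 1.34 times theirs. Of the 9 genes, 2 were called higher and 0 lower (limma, adjusted p under 0.05), where 0.267% of the 13125 genes tested were called higher and 0.0838% lower (0.35% in all). The median log2 fold change was 0.38 over the 9 genes and -0.01 over all genes tested. The IKE libraries lay wholly above the DMSO libraries for 7 genes, wholly below for 1, GSS, and overlapped for GSTP1, while 20.2% and 22.3% of all genes did not overlap in those directions.

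SLC7A11, on chr4:138164097-138242349, had 235 and 243 FPKM in the CFPAC-1 IKE libraries, against 112 and 108 FPKM in the DMSO libraries. The replicates of each group lay close together, and the groups were far apart. The log2 fold change was 1.12 ± 0.22 (SE, 95% interval 0.62 to 1.61), higher in 2 of 2 IKE libraries. The difference did not pass the threshold over all genes (limma, adjusted p = 0.0818). It was called in 3 of 23 alternatives, with an adjusted p of 0.0421 with a pseudocount of 5, 0.0492 among genes averaging 5 FPKM or more and 0.0323 without PANC-1 IKE replicate 1. It was not called in the other 20, with 0.197 in a fit of CFPAC-1 alone, 1 without weights and 0.238 to 0.302 without any 1 of the CFPAC-1 libraries. In level, SLC7A11 ranked between 986 and 996 of 20289 genes with IKE, against 1994 to 2073 with DMSO.

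GCLC had 111 and 136 FPKM in the CFPAC-1 IKE libraries, against 40.5 and 42.5 FPKM in the DMSO libraries. Both IKE libraries lay well above both DMSO libraries, with a ratio of means of 2.97. On the log2 scale IKE libraries were higher by 1.54 ± 0.23 (SE), with an adjusted p of 0.019 in limma and of 0.302 in the fit of CFPAC-1 alone. The modifier subunit GCLM had 28.2 and 27.7 FPKM with IKE, against 23.0 and 19.4 FPKM with DMSO. Its groups did not overlap either, but 0.39 ± 0.25 on the log2 scale was not past the threshold (95% interval -0.17 to 0.94; limma, adjusted p = 0.607).

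The levels of the ligase subunits therefore stood in a different ratio with IKE. GCLM over GCLC was 0.255 and 0.204 in the CFPAC-1 IKE libraries, against 0.568 and 0.457 in the DMSO libraries. GSS, glutathione synthetase, which adds glycine in the second step, had 86.7 and 87.4 FPKM with IKE, against 100.5 and 97.3 FPKM with DMSO. It was the single gene of the 9 whose IKE values lay wholly below its DMSO values, by a log2 difference of -0.18 ± 0.14 (limma, adjusted p = 0.677, not called). GSS over GCLC was 0.784 and 0.645 with IKE, against 2.48 and 2.29 with DMSO. These ratios are descriptions without a test.

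CBS and CTH are the enzymes of transsulfuration, which makes cysteine from methionine without cystine import: CBS condenses homocysteine with serine to cystathionine, and CTH cleaves cystathionine to cysteine. CBS had 17.5 and 15.1 FPKM in the CFPAC-1 IKE libraries, against 6.16 and 5.63 FPKM in the DMSO libraries. The groups were apart, with a ratio of means of 2.76, or 1.32 ± 0.21 (SE) on the log2 scale, and an adjusted p of 0.0248 in limma, or 0.328 in the fit of CFPAC-1 alone. CTH had 10.4 and 10.8 FPKM with IKE, against 7.67 and 8.15 FPKM with DMSO. Its values did not overlap, yet 0.38 ± 0.22 on the log2 scale was not past the threshold (limma, adjusted p = 0.556). GRCh38 carries a near-identical duplicate of CBS, so the share of footprints given to CBS is uncertain.

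GSR, which reduces oxidised glutathione back with NADPH, had 111 and 99.4 FPKM in the CFPAC-1 IKE libraries, against 85.6 and 90.7 FPKM in the DMSO libraries. Its log2 fold change was 0.25 ± 0.17 (limma, adjusted p = 0.638). MGST1, a membrane-bound glutathione transferase and peroxidase, had 1723 and 1783 FPKM with IKE, against 1321 and 1423 FPKM with DMSO, a log2 fold change of 0.35 ± 0.16 (limma, adjusted p = 0.418). GSTP1, the cytosolic pi-class transferase that couples glutathione to electrophiles, had 2034 and 2006 FPKM with IKE, against 1855 and 2158 FPKM with DMSO. Its IKE values lay between its DMSO values. The 95% interval of its log2 fold change was -0.42 to 0.45.

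The calls of GCLC and CBS depended on the model and on each CFPAC-1 library. Leaving out any 1 of the 4 CFPAC-1 libraries ended both (adjusted p 0.0766 to 0.167 for GCLC and 0.103 to 0.192 for CBS, with the remaining library assumed to vary like the other groups), and so did a fit of CFPAC-1 alone (0.302 and 0.328) and a fit without weights (1 for both). GCLC was also lost without PANC-1 IKE replicate 4 (0.0566), and CBS without PANC-1 IKE replicate 2 (0.0508), without replicates 2 and 4 (0.0693) and with no filter on low values (0.056). The log2 fold changes in these fits were 1.39 to 1.69 for GCLC and 1.22 to 1.43 for CBS. In the fits named here that kept all 4 CFPAC-1 libraries they could not change, so their sameness is no evidence of stability. With a pseudocount of 5 they were 1.46 for GCLC and 0.96 for CBS. A fit without weights gives both lines a shared spread, so the wider scatter of PANC-1 enters its SEs for CFPAC-1. For GCLC that SE was 0.48, against 0.23 with weights. The lack of calls without weights therefore cannot decide whether these genes changed.

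**Figure D1:**
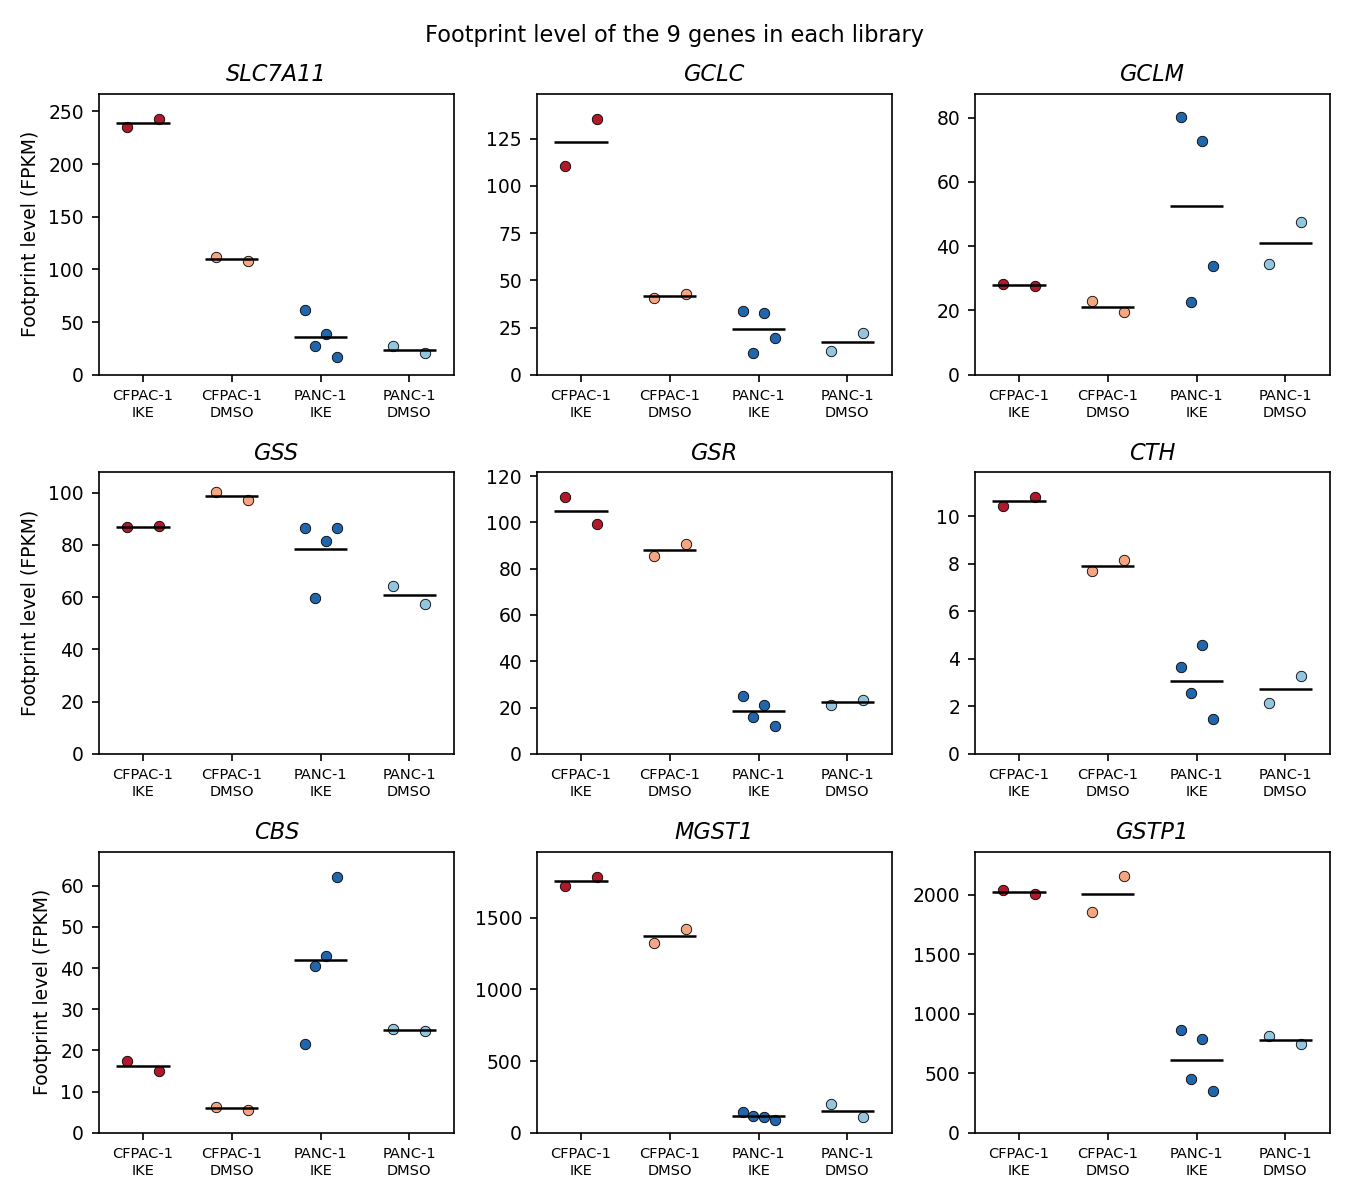
Footprint level in FPKM (vertical axes, linear, from 0, a scale of its own for each gene) of the 9 genes; points are libraries in order of replicate number, horizontal lines are group means. SLC7A11 and GCLC are highest in CFPAC-1 with IKE, with group means of 239 and 123 FPKM, CBS and GCLM are higher in the PANC-1 DMSO libraries than in the CFPAC-1 DMSO libraries, and the 4 PANC-1 IKE libraries differ by 1.45 to 3.66 times between highest and lowest.

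The second question was the same in PANC-1 cells that survived 1 µM IKE. None of the 9 genes was called (limma, 0 with an unadjusted p under 0.05), and the IKE and DMSO values of all 9 overlapped. Over all 13125 genes tested 0 were called in this model, or 0%, with 1429 at an unadjusted p under 0.05; 10.2% of all genes lay wholly higher and 12.2% wholly lower with IKE. A fit without weights called 2 genes and a fit of PANC-1 alone called 1, and neither called any of the 9. The median log2 fold change was 0.18 over the 9 genes and -0.02 over all genes.

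In replicates 1 to 4 of PANC-1 with IKE, SLC7A11 had 61.7, 27.2, 39.0 and 16.9 FPKM, against 27.1 and 20.7 FPKM with DMSO. Of the 4 IKE libraries, 3 lay above both DMSO libraries, replicate 2 barely so, and replicate 4 lay below both DMSO libraries. The log2 fold change was 0.44 ± 0.43 (SE), and its 95% interval of -0.50 to 1.39 held both no change and the CFPAC-1 value of 1.12 (limma, adjusted p = 0.721). It was 0.14 without IKE replicate 1, 0.26 without DMSO replicate 2 and 0.75 without IKE replicate 4. GCLC had 33.8, 11.6, 32.9 and 19.3 FPKM with IKE, against 12.8 and 22.1 FPKM with DMSO. Its log2 fold change was 0.40 ± 0.45, with a 95% interval of -0.59 to 1.38. It was 0.02 and 0.77 without DMSO replicates 1 and 2, and 0.20, 0.70 and 0.22 without IKE replicates 1, 2 and 3. GCLM had 80.3, 22.6, 72.7 and 33.9 FPKM with IKE, against 34.6 and 47.5 FPKM with DMSO. Replicates 1 and 3 lay above both DMSO libraries, and replicates 2 and 4 lay below both. The log2 fold change of 0.18 ± 0.48 changed sign without IKE replicate 1, IKE replicate 3 or DMSO replicate 1 (-0.08, -0.03 and -0.04).

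Among the PANC-1 IKE libraries, replicate 1 had the highest value of the 4 for 6 of the 9 genes. Replicate 4 had the lowest for 5 and replicate 2 for 3. The highest IKE value was 1.45 to 3.66 times the lowest across the 9 genes (median 2.89), a range over 4 libraries that is wider by its number alone than one over 2. Between groups of 2 libraries, that ratio was 1.03 to 1.79 in PANC-1 DMSO (median 1.31) and 1.03 to 1.18 in CFPAC-1 DMSO (median 1.06). Replicates 2 and 4 were also the shallowest libraries by the estimate of depth, at 0.24 and 0.209, and those in which the 10 most abundant genes held the largest shares. The part of depth or of these abundant genes in the result was not tested. Without these 2 libraries the log2 fold changes in PANC-1 were 1.02 for SLC7A11, 0.95 for GCLC and 0.90 for GCLM (limma, adjusted p = 0.504, 0.561 and 0.543). Each was at least 2 times its value with all libraries. For these genes the 2 libraries held the 2 lowest IKE values, so leaving them out could only raise the effect. The rise is therefore no evidence of an IKE effect in PANC-1. In the same fit CBS was lower than with all libraries, at 0.28 (0.899), CTH was at 0.48, GSS at 0.46, MGST1 at -0.24, and GSR and GSTP1 changed sign to 0.04 and 0.08, none called.

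GCLM over GCLC was steadier in PANC-1 than either level. The ratio was 2.37, 1.96, 2.21 and 1.76 in IKE replicates 1 to 4, against 2.71 and 2.15 with DMSO, and these groups overlapped. PANC-1 ratios were above 1 in every library and CFPAC-1 ratios below 1 in every library.

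CBS had 21.5, 40.6, 43.1 and 62.2 FPKM in the PANC-1 cells given IKE, by replicate, against 25.3 and 24.7 FPKM with DMSO. It was higher in 3 of 4 IKE libraries, and its order among the replicates was unlike that of SLC7A11, with replicate 4 highest and replicate 1 lowest. On the log2 scale the effect was 0.63 ± 0.40, not called (limma, adjusted p = 0.581), and it was 0.41 without IKE replicate 4 and 0.28 without replicates 2 and 4. CTH was low, at 3.66, 2.55, 4.58 and 1.45 FPKM with IKE, against 2.15 and 3.26 FPKM with DMSO. CBS over CTH ranged from 5.88 to 42.9 with IKE, against 7.57 and 11.8 with DMSO, and its upper end rests on the CTH value of 1.45 FPKM in a shallow library.

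GSS had 86.4, 59.5, 81.5 and 86.5 FPKM in the PANC-1 cells given IKE, against 64.1 and 57.3 FPKM with DMSO. It was higher than both DMSO libraries in 3 of 4 IKE libraries, with a log2 fold change of 0.35 ± 0.26 (limma, adjusted p = 0.633). GSR had 25.1, 16.0, 20.9 and 11.9 FPKM with IKE, against 21.2 and 23.4 FPKM with DMSO, a log2 fold change of -0.31 ± 0.33 (limma, adjusted p = 0.749). MGST1 had 145, 120.0, 107 and 91.6 FPKM with IKE, against 198 and 110.4 FPKM with DMSO. GSTP1 had 864, 452, 787 and 347 FPKM with IKE, against 813 and 749 FPKM with DMSO. MGST1 and GSTP1 had log2 fold changes of -0.37 ± 0.30 and -0.45 ± 0.38, neither past the threshold (limma, adjusted p = 0.669 and 0.677).

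**Figure D2:**
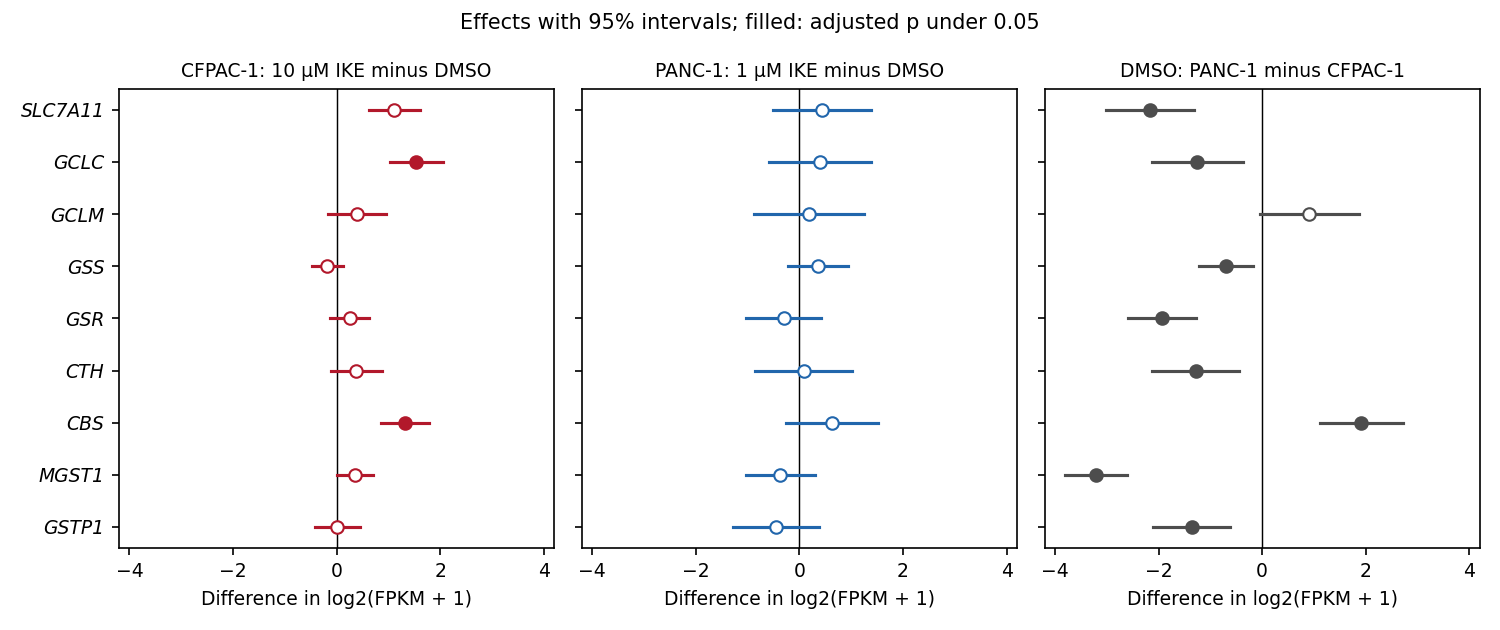
Differences in log2(FPKM + 1) (horizontal axes) for the 9 genes, with 95% intervals from the limma model; filled points passed an adjusted p under 0.05. GCLC and CBS passed in CFPAC-1, no gene passed in PANC-1, where every interval includes 0, and 8 of 9 passed between the lines in DMSO.

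Whether the IKE effects differed between the lines was tested as PANC-1 minus CFPAC-1, in which line and dose change together. None of the 9 genes was called (limma), against 0.00762% of all genes called higher and 0.0152% lower (0.0229% in all). An unadjusted p under 0.05 was found for 1640 of all genes tested (12.5%) and for 1 of the 9, a like share, namely GCLC. Its difference was -1.14 ± 0.50 (SE, 95% interval -2.25 to -0.03; limma, adjusted p = 0.386). It was -0.59 ± 0.38 without PANC-1 IKE replicates 2 and 4, and -1.52 to -0.77 when 1 library was left out. For SLC7A11 the difference was -0.67 ± 0.48 (95% interval -1.74 to 0.39; limma, adjusted p = 0.604), and it was -0.09 ± 0.33 without PANC-1 IKE replicates 2 and 4. For CBS it was -0.69 ± 0.45 (95% interval -1.69 to 0.31; limma, adjusted p = 0.558), and -1.04 ± 0.44 without those 2 libraries. For GCLC and SLC7A11 those 2 libraries held the 2 lowest PANC-1 IKE values, so leaving them out could only move these differences upward. The intervals were wide, so these data do not show whether the lines differed in these effects.

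The third question was how the lines differed without IKE. PANC-1 had lower footprint levels than CFPAC-1 of the cystine importer, of the catalytic ligase subunit, of GSS, GSR and CTH, and of both transferases, and a higher level of CBS. Of the 9 genes 1 was called higher and 7 lower in PANC-1 (limma), against 16.8% of all genes higher, 21.1% lower and 37.9% in either direction. The groups overlapped for none of the 9, with 2 higher and 7 lower, against 33.8% and 36.8% of all genes. The median log2 difference was -1.28 over the 9 genes and -0.03 over all genes. The DMSO libraries are those used in the IKE comparisons, so the results are not independent of each other.

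MGST1 differed most, at 154 ± 62 FPKM in PANC-1 DMSO and 1372 ± 72 FPKM in CFPAC-1 DMSO (SD, n = 2 each), lower by a log2 difference of -3.20 ± 0.27 (SE), with an adjusted p of 5.78e-06 in limma. SLC7A11 stood at 23.9 ± 4.5 FPKM in PANC-1 DMSO and 109.6 ± 2.9 FPKM in CFPAC-1 DMSO, a difference of -2.17 ± 0.38 (limma, adjusted p = 0.00124). GSR stood at 22.3 ± 1.6 FPKM in PANC-1 DMSO and 88.1 ± 3.6 FPKM in CFPAC-1 DMSO, a difference of -1.94 ± 0.30 (limma, adjusted p = 0.000458). CBS went the other way, at 25.0 ± 0.4 FPKM in PANC-1 DMSO and 5.90 ± 0.37 FPKM in CFPAC-1 DMSO, a difference of 1.92 ± 0.36 (limma, adjusted p = 0.00179). The calls of MGST1, SLC7A11, GSR and CBS held in all 10 fits that left out a library.

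The remaining calls were smaller. GSTP1 stood at 781 ± 45 FPKM in PANC-1 DMSO and 2007 ± 214 FPKM in CFPAC-1 DMSO, a difference of -1.36 ± 0.34 (limma, adjusted p = 0.00872). CTH had a difference of -1.28 ± 0.38 (limma, adjusted p = 0.0209), GCLC of -1.25 ± 0.40 (limma, adjusted p = 0.0293) and GSS of -0.70 ± 0.24 (limma, adjusted p = 0.0375). Without PANC-1 DMSO replicate 1 or 2, all 4 were lost (adjusted p 0.0518 to 0.285), and GCLC and GSS were also lost without either CFPAC-1 DMSO library (0.0594 to 0.0781). GSS was also lost without PANC-1 IKE replicate 3 (0.0655), with quantile normalization (0.0856) and, like GCLC, without weights (0.0629 and 0.0679).

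GCLM was the single gene of the 9 not called, at 41.0 ± 9.1 FPKM in PANC-1 DMSO and 21.2 ± 2.5 FPKM in CFPAC-1 DMSO, a log2 difference of 0.91 ± 0.43 (95% interval -0.04 to 1.86; limma, adjusted p = 0.123). Without PANC-1 IKE replicates 2 and 4 the same difference was called (limma, adjusted p = 0.016). Those libraries are not part of this comparison, and only the SE fell, to 0.24. The difference was called in 2 of 22 alternatives. Within a library the contrast of the subunits was plainer. GCLM over GCLC was 2.43 ± 0.39 in PANC-1 DMSO and 0.512 ± 0.079 in CFPAC-1 DMSO (SD, n = 2 each). A ratio within a library does not change when the library is scaled by a common factor, though quantile normalization can change it. CBS over CTH was 9.67 ± 2.97 in PANC-1 DMSO and 0.747 ± 0.079 in CFPAC-1 DMSO.

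**Figure D3:**
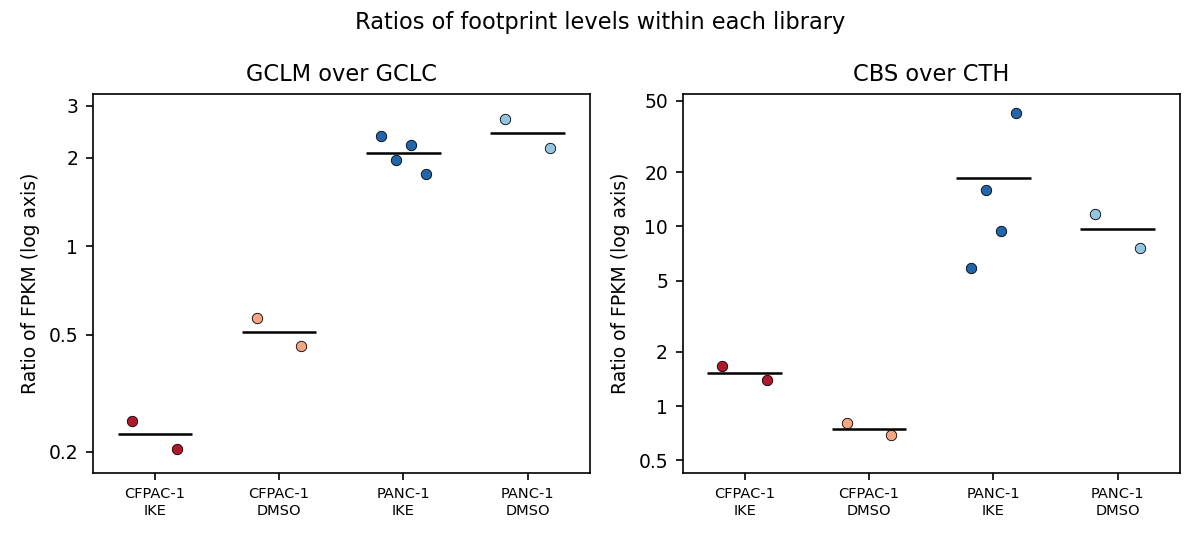
Ratio of footprint levels within each library (log axes) for GCLM over GCLC and CBS over CTH; points are libraries, horizontal lines are group means. GCLM over GCLC lies between 0.204 and 0.568 in CFPAC-1 and between 1.76 and 2.71 in PANC-1, and CBS over CTH is above 5 in every PANC-1 library.

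Across the 4 groups SLC7A11 was highest in CFPAC-1 with IKE (239 ± 6 FPKM, SD, n = 2), followed by CFPAC-1 DMSO (109.6 ± 2.9, n = 2), PANC-1 IKE (36.2 ± 19.3, n = 4) and PANC-1 DMSO (23.9 ± 4.5, n = 2), and only the PANC-1 groups overlapped. GCLC had the same order, with 123 ± 18, 41.5 ± 1.4, 24.4 ± 10.8 and 17.4 ± 6.6 FPKM in those groups. CBS had another order, with 41.9 ± 16.6 FPKM in PANC-1 IKE, 25.0 ± 0.4 in PANC-1 DMSO, 16.3 ± 1.7 in CFPAC-1 IKE and 5.90 ± 0.37 in CFPAC-1 DMSO, and again only the PANC-1 groups overlapped.

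The likeness of the genes to SLC7A11 was measured as the root mean square difference of log2 values over the 10 libraries, each gene centred on its own mean. GSR was nearest among the 9 genes (0.454), and 9 of the other 10702 genes averaging 5 FPKM or more were nearer to SLC7A11. GCLC followed (0.55, with 52 genes nearer), then GSTP1 (0.627), CTH (0.636) and MGST1 (0.769). GSS (1.17), GCLM (1.66) and CBS (2.15) were farther, the last 2 beyond the median of all genes, 1.39. These distances describe 10 libraries that fall into 2 lines and are led by the difference between the lines. For GCLM the nearest of the 9 genes was GSS (0.744), with 3381 genes nearer, whereas its partner GCLC stood at 1.34, with 8825 genes nearer.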

How the data were processed

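Ribosome footprints were sequenced in 10 libraries. Per the file headers, the authors deposited FPKM, with a column for each library and none pooled. Bowtie2 2.2.8, DESeq2, fastp, RSEM and STAR appear without a role in the submitters' processing notes, as does GRCh38. Which annotation, strand setting and footprint lengths were used is not given in the sources used here.

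From the deposited FPKM, log2(FPKM + 1) was computed for the 13125 genes averaging 1 FPKM or more. A single limma model (version 3.58.1, R 4.3.3) covered all 4 groups (6 residual degrees of freedom), with a weight for each line (CFPAC-1 over PANC-1, 4.85), empirical Bayes with a trend, and p-values adjusted over all genes by Benjamini-Hochberg; called means an adjusted p below 0.05. On simulated data this model called more unchanged genes in CFPAC-1 than the threshold allows, so calls there were read beside the fit of CFPAC-1 alone. That fit was not itself run on simulated data, and it has fewer residual degrees of freedom. P-values and SEs rest on the spread between libraries that the labels call biological replicates. That spread was joined for each gene over both lines after weighting, so values for CFPAC-1 also reflect scatter in PANC-1. For SLC7A11 with IKE in CFPAC-1 the SE was 0.22 in this model and 0.068 in the fit of CFPAC-1 alone. Same-numbered libraries did not deviate together (correlations 0.049 in CFPAC-1, -0.17 and -0.16 in PANC-1), so numbers were not used as pairs.

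The genes, lists and tests were chosen with earlier results of these data known. By the rule for named genes all 9 are given; 4 further lists fixed by symbol, the cell type markers and the naming of genes most like SLC7A11 and GCLM were not applied, since the IDs carry no names here. Promoters came from RefSeq, GRCh38.p14. Alternatives covered weights, filters, pseudocounts, scaling, pairing and left-out libraries.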

Additional observations from a re-analysis of the deposited data

How the results depend on the processing

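All 9 genes stayed uncalled for the IKE effect in PANC-1 and for the difference of IKE effects in every alternative run. Of 810 values of single genes under 23 alternatives, 744 kept direction and call, 44 lost the call, 5 gained it and 17 turned direction. Most of the 810 values had no call to lose, since only 2 of the 9 genes were called for CFPAC-1 IKE and 8 between the lines. The 744 are therefore no measure of how stable the calls were. The number of the 9 genes called for CFPAC-1 IKE was 2; it was 0 without weights and in the separate model for each line, 1 with no filter on low values and 1 without PANC-1 IKE replicates 2 and 4 together, and 0 to 3 when 1 library was left out. Between the lines in DMSO it was 8, and 4 to 8 when 1 library was left out. Over all genes, 46 were called for CFPAC-1 IKE, but 1 without weights, 0 in the separate model for each line (1591 at an unadjusted p under 0.05), 77 with a pseudocount of 5, 21 without PANC-1 IKE replicates 2 and 4 together, and 16 to 44 when 1 library was left out. For PANC-1 IKE 0 were called, but 2 without weights, 1 in the separate model, 1 with no filter and 1 without PANC-1 IKE replicates 2 and 4 together, and 0 or 1 when 1 library was left out. Between the lines 4970 were called, and 2868 to 5578 when 1 library was left out; the difference of IKE effects had 3, and 0 to 6. With quantile normalization the median of all genes between the lines was 0.10 (otherwise -0.03) and the calls were 2637 higher and 2481 lower (otherwise 2204 and 2766); the directions of the 9 genes held. The causes were not tested, except that fewer libraries enter the fits that leave some out.

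With the replicate block, fitted on replicates 1 and 2, calls over all genes were 9 for CFPAC-1 IKE, 0 for PANC-1 IKE, 2304 between the lines and 0 for the difference, and 0, 0, 3 and 0 of the 9 genes were called. The block ended the CFPAC-1 IKE calls of GCLC and CBS (adjusted p = 0.163 and 0.14 in limma; 0.128 for SLC7A11, which was not called) and, between the lines, those of CBS (0.0571), GSTP1, CTH, GCLC and GSS (0.0929 to 0.314). The replicate numbers did not pair the libraries. A crossed pairing in PANC-1, added after a negative correlation had been seen, gave 11, 1, 3794 and 0 over all genes, and 0 of the 9 for CFPAC-1 IKE.

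Directions that turned belonged to differences that were never called. With quantile normalization GSTP1 was at -0.020 for CFPAC-1 IKE. Without PANC-1 IKE replicates 2 and 4, GSR was at 0.037 and GSTP1 at 0.079 for PANC-1 IKE, and the differences of IKE effects were 0.51 for GCLM, 0.094 for CTH and 0.065 for GSTP1; with a weight for each library that of GCLM was 0.17. When 1 library was left out, GSTP1 ranged from -0.095 to 0.12 for CFPAC-1 IKE, and for PANC-1 IKE GCLM from -0.080 to 0.51, CTH from -0.14 to 0.30 and MGST1 from -0.79 to 0.052, while the difference for GCLM ranged from -0.47 to 0.13. The ratio of SLC7A11 to SLC3A2 was not run, since the IDs carry no names here. Absolute depth is unknown, so no limit from counting error could be given.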

Other observations

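GSTP1 and MGST1 were among the most abundant footprints in CFPAC-1. With IKE, GSTP1 ranked 67 and 70 and MGST1 ranked 85 and 86 of 20289 genes in CFPAC-1, while in PANC-1 IKE libraries GSTP1 ranked between 246 and 505 and MGST1 between 1418 and 1985. GSTP1 over MGST1 was 1.15 ± 0.04 in CFPAC-1 IKE and 1.46 ± 0.08 in CFPAC-1 DMSO (SD, n = 2 each), and these did not overlap. In PANC-1 the ratio was 3.77 to 7.34 with IKE, against 4.10 and 6.79 with DMSO. These ratios are values without a test.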
